A study of Mus musculus with 6 samples.

Results

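Enzymes that write and erase marks on chromatin, and the SWI/SNF-related remodellers that move nucleosomes, were examined in ribosome-bound RNA of cortical S100a10 cells from mice given fluoxetine or vehicle. The genes were those whose symbol starts with Kdm (lysine demethylases), Hdac (histone deacetylases), Sirt and a digit (sirtuins), Dnmt (DNA methyltransferases) or Smarc (SWI/SNF-related), together with Tet1, Tet2 and Tet3 (5-methylcytosine dioxygenases). The sex-linked Kdm5c, Kdm5d and Kdm6a, and Smarca3, were left out. This gave 53 of the 18193 named genes on the array, with 116 probe sets that are annotated to 1 symbol alone. They were 15 Kdm, 11 Hdac, 7 Sirt, 7 Dnmt or Tet and 13 Smarc genes. For each gene the probe set with the highest mean log2 intensity over the 6 arrays was read. That choice uses the signal level of all arrays together and not the difference between groups.

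Both groups were S100a10 bacTRAP mice of line ES691, backcrossed from FVB onto C57BL/6 for 3 to 5 generations. In such mice the S100a10 control region drives a tagged ribosomal protein, so ribosomes of those cells, and the RNA on them, can be purified from cortex (translating ribosome affinity purification). The submitters state that the line also labels some non-neuronal cells. The fluoxetine group drank the antidepressant at 0.167 mg/ml in 1% saccharine and the vehicle group 1% saccharine alone, for 15 to 18 days. There were 3 samples per group, called biological replicates in the labels, and 1 array each; ages and the number of animals per sample are not given in the sources used here. P-values therefore measure only the spread between these samples. Their number limits the precision of every value, and in bulk RNA fewer cells of a type and less RNA per cell cannot be told apart.

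DNA is wound around histones, and acetyl and methyl groups on histone tails mark stretches of chromatin as open or closed. Deacetylases and sirtuins remove acetyl groups, lysine demethylases remove methyl groups from histone lysines, and SWI/SNF complexes use ATP to slide or evict nucleosomes. DNA methyltransferases add methyl groups to cytosines in CG pairs, and Tet enzymes oxidise them. In neurons these enzymes are known for setting how readily genes respond to activity, and deacetylase inhibitors are studied as antidepressant-like agents in rodents.

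No chromatin gene passed the test. The geometric mean intensity over the 6 arrays had to reach 50 for a probe set to be tested, which 48 of the 53 genes and 81 of the 116 probe sets did. Just below that limit was Tet1, at 47.1, and just above it Hdac10, at 56.9. The other genes left out were Tet2 (39.9), Kdm4d (39.3), Dnmt3b (22) and Dnmt3l (6.88), so 4 of the 7 DNA methylation genes have no test here. In limma's moderated test over all 22326 tested probe sets, 0 of the 48 genes reached a Benjamini-Hochberg adjusted p under 0.05, where 0 of all 12248 tested genes (0%) did. The smallest adjusted p, among the chromatin genes and among all probe sets alike, was 0.999.

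Of the 48 genes, 37 (77.1%) were lower and 11 higher with fluoxetine, where 68.5% of all tested genes were lower. Their median difference was −0.13 on the log2 scale, a fold of 0.911, against −0.06 for all tested genes. The split depended on how the arrays were scaled, for the chromatin genes and for all tested genes alike. After quantile normalization 29 of the 48 were lower (background 50.8%) and the chromatin median was −0.06, and after shifting each array to a common median 31 were lower (background 50.6%) and the median was −0.07. The median of all tested genes was 0.00 under both, so the chromatin median stayed below it in each setting. The genes' median absolute difference of 0.165 was close to their median standard error of 0.16. For all tested genes the median absolute difference was smaller, 0.105, at a median standard error of 0.151.

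At an unadjusted p under 0.05 there were 3 of the 48 genes, Kdm6b, Smarcad1 and Kdm3b, all lower, where 1.95% of all genes were lower and 0.71% higher at that level. The count of 3 was 1 after quantile normalization, after the median shift and without vehicle 1, and 0 without vehicle 2. The 3 fluoxetine values all lay below the 3 vehicle values for 5 genes (Kdm6b, Kdm3b, Kdm3a, Kdm2b and Smarcad1; background 5.99%). They all lay above for 1, Tet3 (background 2.32%).

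**Figure D1:**
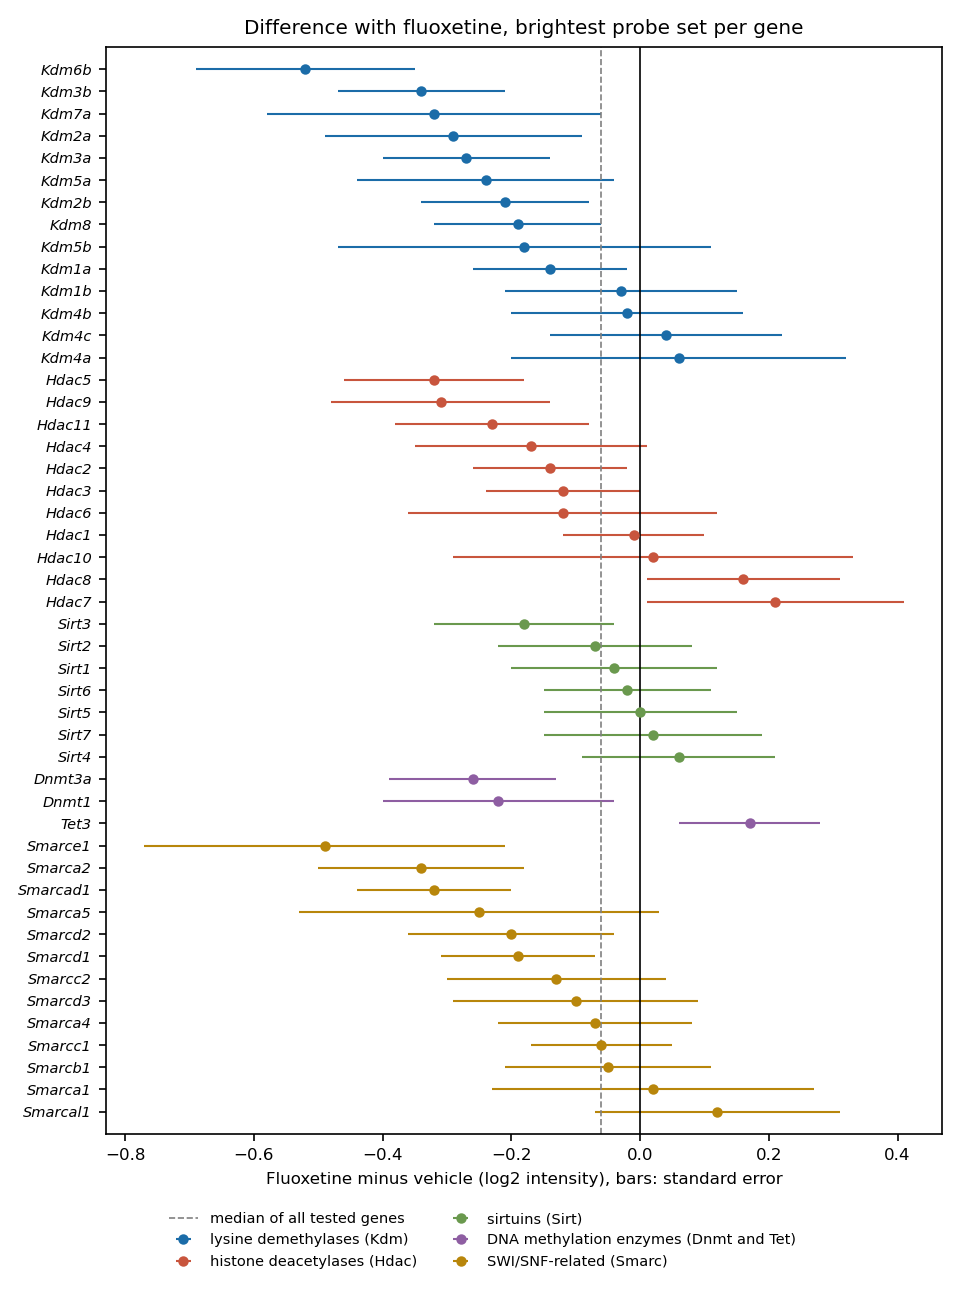
Difference of fluoxetine minus vehicle (x axis, log2 intensity) for the brightest probe set of each of the 48 tested genes (y axis), coloured by family; bars are limma's standard errors, the solid line is 0 and the dashed line is the median of all tested genes, −0.06. Kdm6b lies furthest left at −0.52 and Hdac7 furthest right at 0.21, and no gene passed the test.

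By family, the median difference was −0.20 for Kdm (12 of 14 lower), −0.13 for Smarc (11 of 13), −0.12 for Hdac (8 of 11) and −0.02 for Sirt (4 of 7). The 3 tested DNA methylation genes had a median of −0.22, with 2 lower. Under quantile normalization and the median shift the medians were −0.14 and −0.14 for Kdm, −0.06 and −0.07 for Smarc, −0.05 and −0.06 for Hdac, and −0.15 and −0.16 for the DNA methylation genes. For Sirt the sign turned, to 0.03 and 0.04, and 2 of 7 were lower under either. Kdm had 10 of 14 lower and Hdac 7 of 11 under either, while Smarc had 8 and 10 of 13. The order of the families was not stable. Without vehicle 1 the median was −0.15 for Kdm and −0.18 for Smarc, and without fluoxetine 1 it was −0.19 for Kdm, −0.20 for Smarc and −0.19 for Hdac. Family medians are given as descriptions, without a test of the difference between families.

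The RefSeq promoter table (GRCm38.p6) held 63 promoters for 44 of the 53 genes, each covering 250 bases before to 50 after a transcription start. They held a median of 22 CG pairs, against 20 in the 12807 promoters of tested genes and 7 in all 32851 promoters. CG pairs are the sites on which the Dnmt and Tet enzymes themselves act. The promoters of Hdac5 and Smarcad1 are shown because these genes had the smallest unadjusted p of the Hdac and Smarc families, and because Smarcad1 has 2 listed starts and 2 probe sets that went opposite ways. Each is printed 5′ to 3′ with CG pairs in capitals; there were 18 in Hdac5 and 19 and 25 in the 2 promoters of Smarcad1.
Hdac5, chr11:102230123-102230422, minus strand: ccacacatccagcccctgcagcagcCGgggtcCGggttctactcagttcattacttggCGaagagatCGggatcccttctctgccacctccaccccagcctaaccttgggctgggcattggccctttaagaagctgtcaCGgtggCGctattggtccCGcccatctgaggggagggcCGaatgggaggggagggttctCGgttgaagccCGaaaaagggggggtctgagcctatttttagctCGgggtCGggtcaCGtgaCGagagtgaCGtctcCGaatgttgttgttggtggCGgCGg
Smarcad1, chr6:65042341-65042640, plus strand: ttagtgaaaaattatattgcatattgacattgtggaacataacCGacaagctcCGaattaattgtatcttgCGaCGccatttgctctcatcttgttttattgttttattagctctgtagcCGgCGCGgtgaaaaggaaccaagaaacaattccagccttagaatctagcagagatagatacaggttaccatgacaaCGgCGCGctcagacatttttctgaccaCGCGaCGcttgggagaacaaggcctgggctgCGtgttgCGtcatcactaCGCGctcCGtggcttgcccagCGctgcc
Smarcad1, chr6:65042956-65043255, plus strand: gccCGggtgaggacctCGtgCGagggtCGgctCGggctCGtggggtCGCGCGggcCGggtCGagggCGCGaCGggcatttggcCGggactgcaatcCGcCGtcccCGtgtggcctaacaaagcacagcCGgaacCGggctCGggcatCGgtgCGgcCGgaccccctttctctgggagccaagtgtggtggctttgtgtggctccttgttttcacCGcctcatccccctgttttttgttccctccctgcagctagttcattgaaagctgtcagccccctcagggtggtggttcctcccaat

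Searched on both strands, the cyclic AMP response element TGACGTCA stood in 0 of the 63 promoters, against 1.79% of all promoters and 2.93% of those of tested genes. The E-box CACGTG stood in 5 (7.94%, against 7.15% and 9.67%), in Hdac5, Sirt1, Kdm4c and 1 promoter each of Dnmt3a and Dnmt3l. The GC box GGGCGG stood in 44 (69.8%, against 35.7% and 61.5%), among them Hdac5 but neither Smarcad1 promoter. Which start a probe set reports was not tested.

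Among the lysine demethylases, Kdm6b, which removes methyl groups from lysine 27 of histone H3, had the largest difference of all 48 genes. It measured 10.15, 9.72 and 10.06 in log2 on fluoxetine arrays 1 to 3 and 10.29, 10.75 and 10.44 on vehicle arrays 1 to 3. The groups did not overlap, and the nearest values were 10.15 and 10.29. The difference was −0.52 ± 0.17 (log2, SE), a fold of 0.698 (unadjusted p = 0.0192, limma adjusted p = 0.999). It was −0.39 without fluoxetine 2 and −0.39 without vehicle 2. A second tested probe set of Kdm6b differed by only −0.07 ± 0.13.

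Kdm3a and Kdm3b, paralogs that act on lysine 9 of histone H3, were both lower without overlap. Kdm3b measured 7.88, 7.93 and 7.59 with fluoxetine and 8.08, 8.06 and 8.25 with vehicle, a difference of −0.34 ± 0.13 (SE; unadjusted p = 0.0402, limma adjusted p = 0.999). Its fluoxetine mean was pulled down by array 3, without which the difference was −0.23. Kdm3a measured 9.77, 9.41 and 9.75 against 9.90, 9.96 and 9.87, a difference of −0.27 ± 0.13 that was −0.15 without fluoxetine 2. The other probe set of Kdm3b differed by −0.06 ± 0.11.

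Kdm2b, a demethylase that also targets Polycomb complexes to CG-rich DNA, read 11.04, 10.81 and 11.04 with fluoxetine and 11.32, 11.08 and 11.13 with vehicle. The groups did not overlap, though fluoxetine 1 and 3 nearly reached vehicle 2, and the difference was −0.21 ± 0.13. Its second probe set, the one that does not carry the mark for possible matches to several genes, differed by 0.00 ± 0.14. Its paralog Kdm2a differed by −0.29 ± 0.20 with overlapping groups.

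The other demethylases overlapped between groups. Kdm7a differed by −0.32 ± 0.26 and the lysine 4 demethylases Kdm5a and Kdm5b by −0.24 ± 0.20 and −0.18 ± 0.29. Kdm8 differed by −0.19, the flavin-dependent Kdm1a and Kdm1b by −0.14 and −0.03, and the 3 tested Kdm4 genes, which act on lysines 9 and 36, by −0.02 (Kdm4b), 0.04 (Kdm4c) and 0.06 (Kdm4a). Kdm1b and Kdm4b turned positive under both scalings, Kdm1b to 0.03 under each and Kdm4b to 0.03 and 0.04. Kdm5a shows how far probe sets of 1 gene can part. Its 3 brighter probe sets differed by −0.24, −0.38 and −0.39, while the dimmest tested one read 5.80, 6.14 and 5.87 with fluoxetine and 5.68, 5.56 and 5.32 with vehicle, higher by 0.42 ± 0.15 without overlap.

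**Figure D2:**
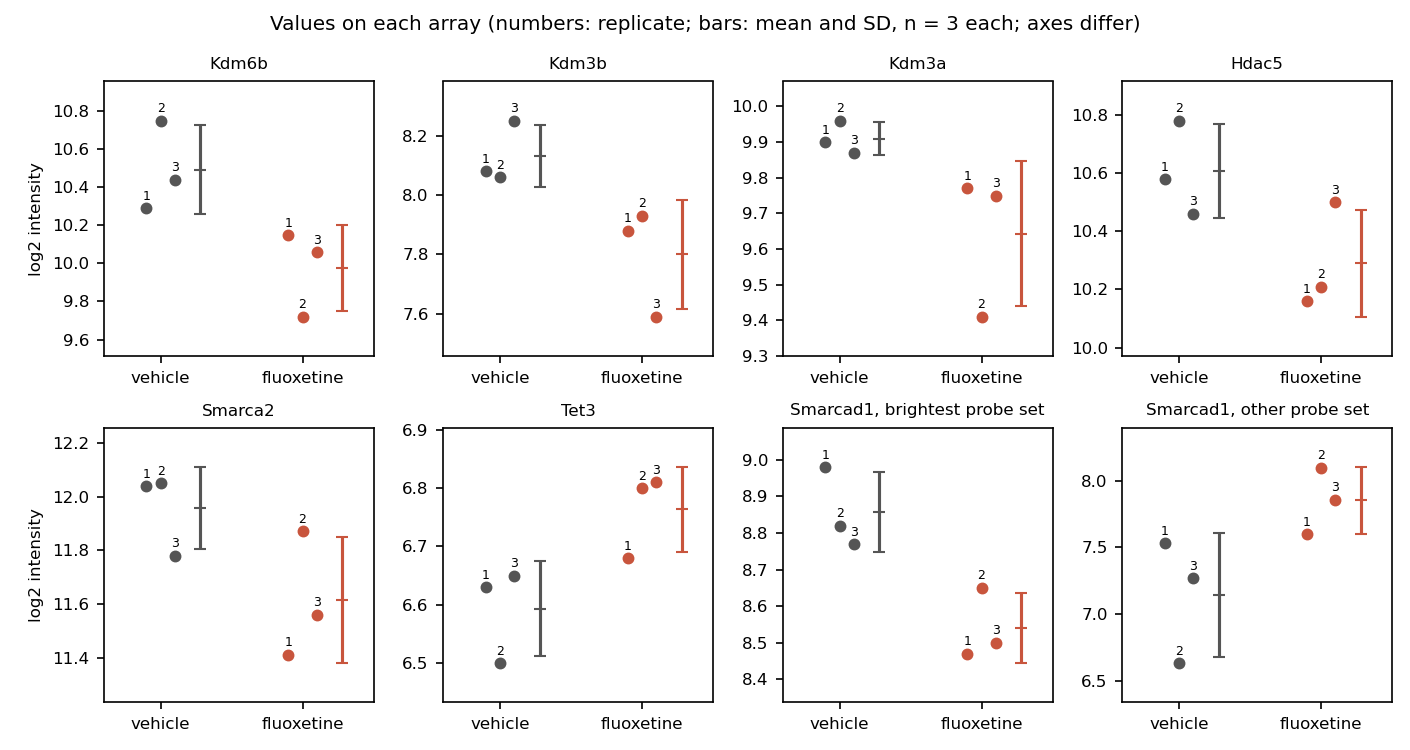
Log2 intensity (y axis, scale differs between panels) on each array for 6 genes and for both tested probe sets of Smarcad1; points are arrays numbered by replicate, and bars are the mean and SD of 3 arrays per group (x axis). Groups do not overlap in the panels of Kdm6b, Kdm3b, Kdm3a, Tet3 and Smarcad1, and the 2 Smarcad1 probe sets lie in opposite directions.

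Histone deacetylases are grouped into classes by sequence, and none of the 11 genes had groups that did not overlap. The class IIa enzymes Hdac4, Hdac5, Hdac7 and Hdac9, known to shuttle between nucleus and cytoplasm with neuronal activity, had a median of −0.24 with 3 of 4 lower (−0.17 and −0.18 under the scalings, with 3 of 4 lower in each). Hdac5 measured 10.16, 10.21 and 10.50 with fluoxetine and 10.58, 10.78 and 10.46 with vehicle. Only fluoxetine 3 reached into the vehicle range, and the difference was −0.32 ± 0.14 (SE; unadjusted p = 0.0639, limma adjusted p = 0.999). Hdac9 measured 10.65, 11.14 and 10.97 against 11.45, 11.23 and 11.01, a difference of −0.31 ± 0.17 that was −0.18 without fluoxetine 1 and −0.20 without vehicle 1.

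Hdac4 differed by −0.17 ± 0.18 at its brightest probe set, where the groups overlapped. Its dimmer probe set read 7.60, 7.71 and 7.67 with fluoxetine and 7.96, 7.99 and 7.93 with vehicle, lower by 0.30 on the log2 scale without overlap and with little spread in either group. Hdac7, near the limit of 50, was higher by 0.21 ± 0.20.

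Hdac11, the only class IV enzyme, measured 12.83, 12.52 and 13.01 with fluoxetine and 12.97, 13.10 and 12.98 with vehicle, a difference of −0.23 ± 0.15. Without fluoxetine 2 the difference was −0.10. A second tested probe set of Hdac11, nearly as bright, differed by only −0.04 ± 0.12. Of class I, Hdac1, Hdac2 and Hdac3 are enzymes of the Sin3, NuRD, CoREST and NCoR co-repressor complexes. Hdac2 measured 12.96, 12.70 and 12.89 against 13.03, 13.07 and 12.86 and differed by −0.14 ± 0.12. Without fluoxetine 2 the Hdac2 difference was −0.06, and its dimmer probe set, which does not carry the mark for several genes, differed by −0.27 ± 0.16. Hdac1, the paralog of Hdac2, differed by −0.01 ± 0.11 (0.06 and 0.05 under the scalings), Hdac3 by −0.12 ± 0.12 and Hdac8 by 0.16 ± 0.15. The class IIb genes Hdac6, a tubulin deacetylase, and Hdac10 differed by −0.12 ± 0.24 and 0.02 ± 0.31.

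Sirtuins, deacylases that consume NAD, lay closest to 0. All 7 were tested, and their differences ran from −0.18 to 0.06. Sirt3, of mitochondria, measured 13.10, 12.76 and 12.95 with fluoxetine and 12.92, 13.20 and 13.22 with vehicle, a difference of −0.18 ± 0.14 that was −0.09 without fluoxetine 2, −0.12 without vehicle 3 and −0.27 without vehicle 1. Sirt2, a largely cytosolic enzyme that is abundant in myelin-forming cells, measured 12.14, 11.69 and 11.97 against 11.86, 12.11 and 12.02. Its difference was −0.07 ± 0.15 (0.01 after quantile normalization), and its lowest value was on fluoxetine 2, the array on which more of all tested genes were lowest than on any other. Of the 3 tested oligodendrocyte markers, Mbp (10.93, against 11.30 to 11.73 elsewhere) and Mag (7.42, against 8.10 to 8.47) were lowest there too, while Mobp (7.96) was lowest on vehicle 3 (7.79). The part of oligodendrocyte RNA in Sirt2 was not tested.

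Sirt4 measured 7.15, 7.35 and 7.01 with fluoxetine and 7.01, 6.97 and 7.36 with vehicle (0.06 ± 0.15). Sirt1, a nuclear enzyme, measured 9.32, 9.50 and 9.32 against 9.53, 9.63 and 9.10 (−0.04 ± 0.16; 0.03 and 0.02 after quantile normalization and the median shift). In each of these 4 sirtuins the groups overlapped. Sirt5, Sirt6 and Sirt7 differed by 0.00, −0.02 and 0.02, each with a standard error of 0.13 to 0.17.

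Of the DNA methylation genes only Dnmt3a, Dnmt1 and Tet3 were bright enough to test, and none passed. Dnmt3a, which sets new methylation and is the main such enzyme of mature neurons, measured 9.10, 8.76 and 8.80 with fluoxetine and 9.08, 9.20 and 9.17 with vehicle. Fluoxetine 1 lay inside the vehicle range and the difference was −0.26 ± 0.13 (SE; unadjusted p = 0.0818, limma adjusted p = 0.999), or −0.37 without that array. Of its 4 dimmer probe sets, 3 were lower, by −0.60 ± 0.41, −0.21 ± 0.16 and −0.11 ± 0.27, and 1 was higher, by 0.13 ± 0.11. Dnmt1, which copies methylation to new DNA strands, measured 9.64, 9.23 and 9.77 against 9.66, 9.98 and 9.67 (−0.22 ± 0.18, but −0.06 without fluoxetine 2 and −0.12 without vehicle 2). That probe set carries the mark for possible matches to several genes, and the 1 tested Dnmt1 probe set with no such mark differed by −0.07 ± 0.19. Read from it, the median of the 3 DNA methylation genes was −0.07.

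Tet3 measured 6.68, 6.80 and 6.81 with fluoxetine and 6.63, 6.50 and 6.65 with vehicle. It was higher by 0.17 ± 0.11 (unadjusted p = 0.165, limma adjusted p = 0.999), and although the groups did not overlap the nearest values were 6.68 and 6.65. It is also a fairly dim probe set, though it passed a minimum of 100. Among the 9 chromatin probe sets with a geometric mean of 50 to 100, 7 were higher with fluoxetine (median 0.16). Among the 72 brighter ones, Tet3 included, 13 were (median −0.16). Over all tested probe sets 51.9% of those between 50 and 100 and 30.7% of the brighter ones were higher.

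**Figure D3:**
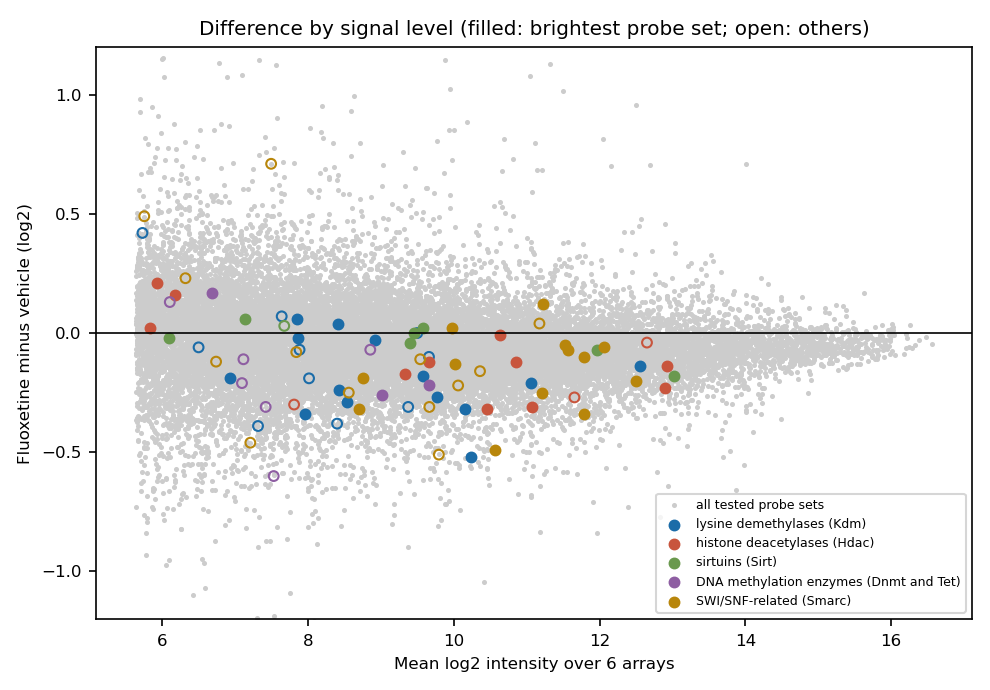
Difference of fluoxetine minus vehicle (y axis, log2) against the mean log2 intensity over the 6 arrays (x axis) for all 22326 tested probe sets (grey) and the 81 chromatin probe sets (coloured by family; filled for the brightest of a gene, open for others). The y axis runs from −1.2 to 1.2 and leaves 16 probe sets outside. Of the 9 chromatin probe sets with a geometric mean of 50 to 100, at the left, 7 lie above 0, and of the 72 brighter ones 13 do.

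Of the Smarc genes, Smarcad1, an SNF2-type remodeller outside the SWI/SNF complex, had the smallest unadjusted p. Its brightest probe set read 8.47, 8.65 and 8.50 with fluoxetine and 8.98, 8.82 and 8.77 with vehicle, without overlap, a difference of −0.32 ± 0.12 (SE; unadjusted p = 0.0296, limma adjusted p = 0.999). The other probe set went the opposite way, again without overlap. It read 7.60, 8.10 and 7.86 against 7.53, 6.63 and 7.27, higher by 0.71 ± 0.25 (unadjusted p = 0.023, limma adjusted p = 0.999). Averaged over both probe sets the gene was higher by 0.20, so its direction rested on which probe set was read.

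Smarca2 and Smarca4 encode BRM and BRG1, the alternative ATPases of SWI/SNF. Smarca2 measured 11.41, 11.87 and 11.56 with fluoxetine and 12.04, 12.05 and 11.78 with vehicle (−0.34 ± 0.16, unadjusted p = 0.0644, limma adjusted p = 0.999). Only fluoxetine 2 and vehicle 3 crossed. Smarca4 differed by −0.07 ± 0.15 (0.02 after quantile normalization). The ISWI ATPase genes Smarca1 and Smarca5 differed by 0.02 ± 0.25 and −0.25 ± 0.28, and Smarcal1, which remodels stalled replication forks, by 0.12 ± 0.19.

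All 7 core and accessory subunits were lower, by a median of −0.13, but 5 of 7 were after quantile normalization (median −0.06) and 6 after the median shift (−0.07). Smarce1 (BAF57) had the largest difference, −0.49 ± 0.28. Its brightest probe set measured 10.62, 9.72 and 10.64 against 10.98, 10.98 and 10.47. Much of that difference came from fluoxetine 2, without which it was −0.18. The other tested probe set of Smarce1 read 9.46, 9.60 and 9.45 against 9.97, 9.93 and 9.54, with overlapping groups. There the difference was −0.31 ± 0.15, and fluoxetine 2 was the highest fluoxetine value. Smarcd1 (BAF60A) measured 8.65, 8.76 and 8.54 against 8.86, 8.71 and 8.97 (−0.19 ± 0.12). The differences of Smarcd2, Smarcc2, Smarcd3, Smarcc1 and Smarcb1 were −0.20, −0.13, −0.10, −0.06 and −0.05. Smarcb1 was at 0.02 and 0.01 under the scalings and Smarcc1 at 0.02 and 0.00.

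Of the 23 chromatin genes with at least 2 tested probe sets, 8 (34.8%) had probe sets of opposite sign, where 42.2% of all such genes did. They were Dnmt3a, Kdm2b, Kdm5a, Kdm5b, Smarcad1, Smarcal1, Smarcb1 and Smarcd2. Of the 81 tested probe sets, 7 had an unadjusted p under 0.05 (background 2.52%), and the groups did not overlap for 12 (background 8.05%), 6 lower and 6 higher. Those higher were Tet3 and probe sets of Smarcad1, Kdm5a, Smarcb1, Dnmt3a and Smarcd2 that were not the brightest of their gene. The last 4 had a geometric mean under 100. Of those lower, only the one of Hdac4 was not the brightest of its gene. Over all tested genes, each read from its brightest probe set, 5.99% were lower and 2.32% higher without overlap.

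Across arrays, 23 of the 48 genes were lowest on fluoxetine 2 and 21 were highest on vehicle 2. The same 2 arrays were the extremes over all 12248 tested genes, with 3950 lowest on fluoxetine 2 and 3828 highest on vehicle 2. The median deviation of the chromatin genes from their own means was −0.14 on fluoxetine 2 and 0.15 on vehicle 2, and 0.02, −0.03, 0.06 and 0.03 on fluoxetine 1, fluoxetine 3, vehicle 1 and vehicle 3. For all tested genes it was −0.07 on fluoxetine 2 and 0.09 on vehicle 2. The median SD within groups was 0.21 for the chromatin genes and 0.19 for all tested genes.

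**Figure D4:**
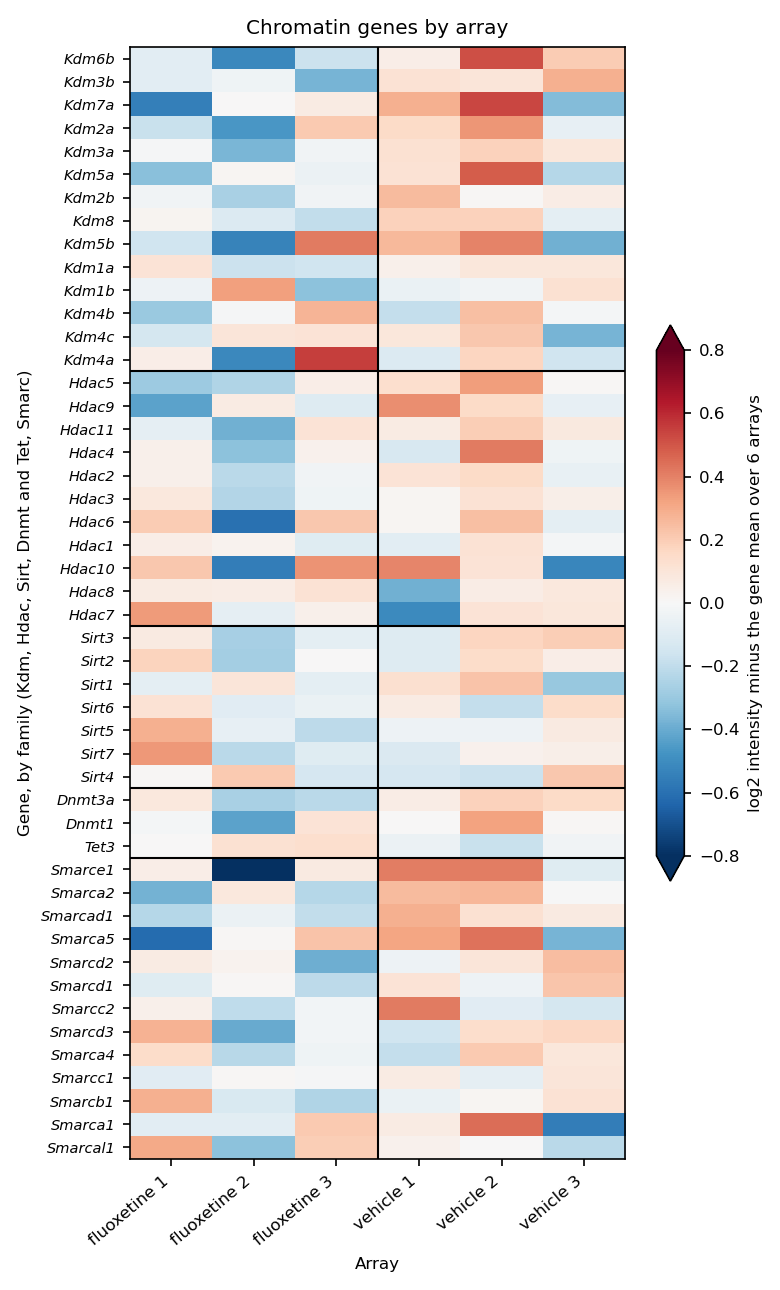
Log2 intensity of each tested chromatin gene (rows, by family from Kdm at the top to Smarc at the bottom) on each array (columns), as the deviation from the gene's mean over 6 arrays; blue is below and red above that mean. Fluoxetine 2 holds the lowest value of 23 of the 48 genes and vehicle 2 the highest of 21.

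Some of the dimmer probe sets varied widely within a group. The 4 with the largest SD within groups, chosen after their values were seen, belonged to Smarca2 (0.88), Smarcc1 (0.83), Smarca5 (0.74) and Dnmt3a (0.64). Their SD was larger than that of 97.7% to 99.3% of tested probe sets. The one of Smarca2 read 7.40, 8.52 and 9.39 with fluoxetine and 8.70, 9.42 and 7.93 with vehicle. The one of Smarca5 read 8.86, 9.51 and 10.24 against 10.43, 10.56 and 9.15. All 4 were lowest on fluoxetine 1, and in each vehicle 3 was the lowest of the vehicle arrays.

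Of 6 nuclear non-coding RNAs listed as signs of RNA quality, Malat1 and Meg3 had the same pair of low arrays. Malat1 measured 6.85, 8.91 and 9.25 with fluoxetine and 9.85, 8.85 and 6.99 with vehicle, and Meg3 measured 7.04, 7.84 and 8.18 against 8.21, 8.06 and 6.84. The lowest values of Snhg11 were also on fluoxetine 1 (7.46) and vehicle 3 (7.60), though fluoxetine 3 was close at 7.63. Miat, Rian and Neat1 did not have that pair of low arrays. Miat read 7.19, 7.17 and 7.17 against 7.39, 7.64 and 7.44, Rian was lowest on vehicle 1 (6.80) and Neat1 on fluoxetine 3 (7.37). Over the whole list, 5 were lower with fluoxetine, and their mean level ran from 7.19 to 7.83 and from 7.29 to 8.03 in log2. The part of RNA quality in these values was not tested. Without fluoxetine 1 and vehicle 3, a setting chosen after the data were seen, 42 of the 48 chromatin genes were lower and none passed. Their median was −0.22, against −0.10 for all tested genes, whose share of lower genes in that setting is not given here. The setting keeps fluoxetine 2 and vehicle 2, the arrays most often lowest and highest over all tested genes, with fewer arrays beside them.

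**Figure D5:**
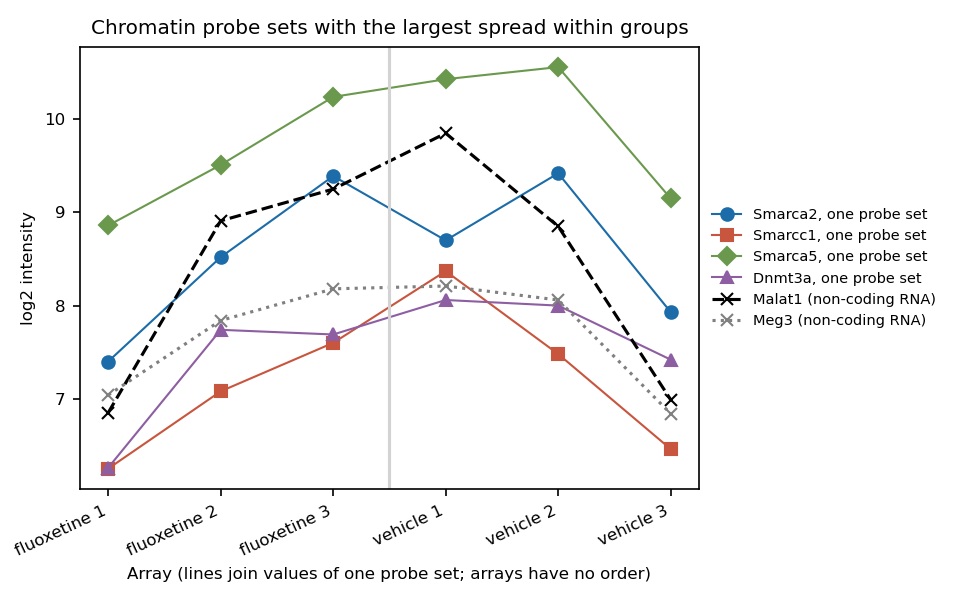
Log2 intensity (y axis) on each array (x axis) of the 4 chromatin probe sets with the largest SD within groups, with Malat1 and Meg3; lines join the values of 1 probe set and arrays have no order. Every line is low on fluoxetine 1 and vehicle 3, as in Malat1 at 6.85 and 6.99 against 8.85 to 9.85 elsewhere.

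Genes that work with these families were read from 6 further lists, and none of their members passed limma's test. Of 20 tested BAF and PBAF subunits with other names, 14 were lower (median −0.04), but 7 and 8 under the quantile and median-shift scalings (0.04 and 0.02). Bcl7b read 10.73, 10.65 and 10.62 against 10.96, 10.89 and 10.92 (−0.26 ± 0.10, unadjusted p = 0.0385, limma adjusted p = 0.999), and Brd9, a bromodomain subunit, differed by −0.23 ± 0.11; neither overlapped. Bicral differed by −0.20 ± 0.14. Other remodelling ATPases and their partners were lower in 16 of 17 cases (median −0.18; 14 and 15 under the scalings, −0.10 and −0.12). Among them were Chd2 at −0.44 ± 0.26, Chd1 at −0.40 ± 0.20 and Ino80 at −0.32 ± 0.20, all with overlapping groups.

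Partners of the deacetylases in co-repressor complexes were lower in 16 of 20 cases, by a median of −0.05, but in 11 and 9 of 20 under the scalings (−0.01 and 0.01). Hmg20b was higher without overlap (7.62, 7.38 and 7.36 against 7.12, 7.07 and 7.30; 0.29 ± 0.13), and Rcor3 and Mta1 differed by −0.25 ± 0.16 and −0.19 ± 0.13. Histone acetyltransferases, which oppose the deacetylases, were lower in 11 of 13 cases (median −0.08), and in 7 of 13 under either scaling (−0.01 and −0.02). Ncoa3 read 9.35, 9.35 and 9.20 against 9.57, 9.57 and 9.62 (−0.29 ± 0.11), Crebbp differed by −0.40 ± 0.20 and Kat5 by −0.18 ± 0.16.

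Histone lysine methyltransferases, which oppose the demethylases, were lower in 20 of 26 cases (median −0.11; 18 and 17 under the scalings, −0.04 and −0.05). Smyd2 measured 12.61, 12.72 and 12.80 against 13.02, 13.05 and 13.08, without overlap (−0.34 ± 0.11, unadjusted p = 0.016, limma adjusted p = 0.999). The Polycomb methyltransferases parted: Ezh1 differed by −0.21 ± 0.12 and Ezh2, a dim probe set, by 0.71 ± 0.29 with vehicle 1 low at 4.90. Readers of methylated DNA and demethylation partners were lower in 9 of 12 cases (median −0.08; 9 and 8 under the scalings, −0.01 and −0.02), with Uhrf2 at 0.30 ± 0.15, Zbtb33 at −0.23 ± 0.20 and Idh2 at −0.15 ± 0.12. Beside all of these stands the 68.5% of all tested genes that were lower.

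Markers of the cells were read on the same arrays. S100a10 measured 15.09, 15.17 and 14.98 with fluoxetine and 15.07, 15.22 and 15.17 with vehicle, and all 5 neuronal markers were above the limit of 50. Snap25, Rbfox3 and Syt1 varied little, lying between 14.32 and 15.75, but Slc17a7 ran from 8.95 to 10.30 (0.45 ± 0.35) and Camk2a from 9.38 to 10.96 (0.09 ± 0.39). Other cells were represented as well. Of 6 astrocyte markers 4 were higher (5 under either scaling), the mean level ranging from 9.26 to 11.14 with fluoxetine and from 9.37 to 9.62 with vehicle, and Gfap read 12.13, 4.49 and 9.02 against 4.70, 5.24 and 5.67. All 5 pericyte and smooth muscle markers were lower (median −0.41) and all 4 tested microglial ones higher (median 0.15). Mog, Olig2, Aif1, Pecam1 and Tek were below the limit of 50. The part of these cells in the chromatin genes' values was not tested.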

How the data were processed

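RNA from 3 fluoxetine and 3 vehicle TRAP samples was hybridised, after amplification from 15 ng, to single-colour Affymetrix arrays. The deposited values are linear intensity for each array. The submitters' processing notes name GCRMA, without a version, and no genome build is given in the sources used here. This method models background from probe sequence and is meant to make the arrays' distributions alike, which can mask a change common to most genes. Dim values lie close to a floor. The deposited values still differed between arrays. In them 68.5% of tested genes were lower with fluoxetine, against 50.8% after a further quantile normalization. No read depth exists; the values ran from 1.74 to 99076, and array medians from 47.3 to 48.6.

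Of 45101 probe sets, 64 array controls were left out; 34945 had 1 symbol in the platform annotation, 932 several and 9160 none. Values were taken to log2 without offset. The 22326 probe sets with a geometric mean of at least 50 were tested with limma 3.58.1 in R 4.3.3 (lmFit, then eBayes; two-sided p, without a block), and p-values were adjusted over all of them by Benjamini-Hochberg. Picked by the mean of linear values instead, only Kdm5a would have another probe set, at −0.38. The fit was also run on simulated arrays with the spread of the main fit, with 200 changed probe sets in each of 20 runs. It recovered 2.69% of true changes of 0.5 in log2, 70.6% of changes of 1 and 98.6% of changes of 2. These sizes were mixed in each run, and simulated probe sets varied independently. Real probe sets share array-wide patterns, so the shares recovered may differ on the real arrays.

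The genes and lists were chosen with earlier results of these data known. In each family the 4 genes with the smallest unadjusted p are given with every array's value, and in each further list the 3 with the smallest p; probe sets singled out otherwise were chosen after their values were seen. Alternatives were other filters, an offset of 16, other scalings, a replicate block, other variance estimates, array weights, other probe set choices and leaving out arrays.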

Additional observations from a re-analysis of the deposited data

How the results depend on the processing

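Under every one of the 19 alternatives run, 0 chromatin genes and 0 probe sets overall passed limma's test, and between 29 and 42 chromatin genes were lower, of 44 to 53 tested. At an unadjusted p under 0.05 the main setting had 3 chromatin genes and 563 probe sets, no filter 3 and 2631, array weights 5 and 769, and averaged probe sets 1 chromatin gene. Over all probe sets, leaving out 1 array gave 318 (without vehicle 2) to 1198 (without fluoxetine 2). With the replicate number as a block (replicate block) the counts were 0 and 350. Same-numbered samples did not deviate together (correlations of −0.253, −0.0275 and −0.502). Probe sets share array-wide patterns and the arrays are few, so these values cannot settle whether the numbers pair samples.

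Under the quantile and median-shift scalings the median of all tested genes was 0.00 in each, and that of Smarc −0.06 and −0.07. Without any filter the DNA methylation median was 0.00 over 7 genes. Leaving out 1 array at a time gave medians of −0.19 to −0.06 for the chromatin genes, −0.27 to −0.13 for Kdm, −0.20 to −0.03 for Hdac (−0.03 without fluoxetine 2 or without vehicle 2), −0.13 to 0.04 for Sirt, −0.28 to −0.06 for the DNA methylation genes and −0.20 to −0.08 for Smarc. Without fluoxetine 1 and vehicle 2 the Kdm median was −0.10, with 8 of 14 lower, and the Smarc median −0.21. Without fluoxetine 1 and vehicle 3, chosen after seeing the data, the medians were −0.22 (chromatin genes), −0.31 (Kdm), −0.27 (Hdac) and −0.20 (Smarc).

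Sign changes among the 19 genes given in full were few. With probe sets open to several genes left out Kdm2b was at 0.00, and Smarcad1 at 0.20 with probe sets averaged. Sirt2 was at 0.01 after quantile normalization and between −0.17 and 0.05 with 1 array left out. Sirt4 was at 0.00 without fluoxetine 1 and vehicle 2, and between −0.03 and 0.18 with 1 array left out. Sirt1 was at 0.03 and 0.02 after quantile normalization and the median shift, at 0.10 without fluoxetine 1 and vehicle 2, and between −0.20 and 0.07 with 1 array left out. The causes were not tested. Precision is limited to a median standard error of 0.16 in log2 over the 48 genes, and 5 genes below the limit of 50 have no test.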

Other observations

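Below the limit of 50, 35 chromatin probe sets were not tested. Of these, 23 (65.7%) were higher with fluoxetine, by a median of 0.08 in log2, where 72.6% of all 22711 probe sets below the limit were higher, by a median of 0.05. Dnmt3b, a de novo methyltransferase, read 5.16, 4.42 and 3.81 with fluoxetine and 4.41, 4.20 and 4.77 with vehicle. Dnmt3l, its catalytically inactive relative, read 2.82, 2.87 and 2.88 against 2.80, 2.69 and 2.64.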
